A study of Homo sapiens with 12 samples.

Results

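The 10 genes described here are those of the transcriptional co-activators YAP (YAP1) and TAZ (WWTR1), their DNA-binding partners TEAD1 to TEAD4, and 4 of their standard target genes, CCN1 (also CYR61), CCN2 (also CTGF), ANKRD1 and AMOTL2. They were taken by name, and all 10 were found once each among the 58721 genes of the count table. Levels came from 12 RNA-seq libraries, 4 groups of 3, of EW8 and TC71 Ewing sarcoma cells. Cells of both lines carried a lentiviral construct with which doxycycline induces c-Jun and c-Fos together, the founding members of the AP-1 transcription factor family, and the pools of selected cells were given doxycycline at 2000 ng/ml or DMSO alone (vehicle) over 72 h. The genotype field of the vehicle libraries reads WT although their cells held the same uninduced construct. The Tet-On 3G activator was driven by the EF1 alpha promoter and the c-Jun and c-Fos cassette by the TRE3G promoter. Doxycycline-treated cells lacking the cassette were not analysed here, so doxycycline itself and the induced proteins cannot be told apart. The labels do not say whether replicates were separate cultures, so p-values measure only the spread between these libraries.

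The Hippo pathway is a kinase cascade that restrains tissue growth. Its MST kinases (STK3 and STK4) activate the LATS kinases, which phosphorylate YAP and TAZ and so hold them in the cytoplasm or mark them for destruction. When the cascade is quiet or cells are stretched, YAP and TAZ enter the nucleus and bind TEAD proteins, often at enhancers that AP-1 also occupies, and in Ewing sarcoma the fusion protein EWS-FLI1 is known to antagonize this transcription. RNA counts measure neither phosphorylation nor nuclear entry.

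TEAD proteins recognise the letters CATTCC, which read GGAATG on the other strand. AP-1 recognises the letters TGACTCA, which differ from their other strand in the middle base alone. The promoters of the members were searched for both motifs on both strands. The end of the AP-1 motif can overlap the start of the TEAD motif, which did not occur in the windows of the members. RefSeq promoters (GRCh38.p14) were at hand for 7 of the 10 genes, and TEAD1, TEAD4 and CCN1 had none. The promoters filled 10 windows of 300 bases each, 250 before a start and 50 after it. The TEAD motif lay in 14.03% of all 35116 RefSeq windows of that length and the AP-1 motif in 4.95%. The TEAD motif lay in 4 of the members' windows, 3 times for CCN2, in a pair of places for ANKRD1 and once each for YAP1 and AMOTL2. The AP-1 motif was in 0 of the 10 windows. The 250 bases before the start are shown for CCN2 and ANKRD1 because both are target genes that hold more than 1 match. Each match is in capitals and the last base is next to the start. These stretches lie on the minus strand at chr6:131951373-131951622 and chr10:90921088-90921337.
CCN2: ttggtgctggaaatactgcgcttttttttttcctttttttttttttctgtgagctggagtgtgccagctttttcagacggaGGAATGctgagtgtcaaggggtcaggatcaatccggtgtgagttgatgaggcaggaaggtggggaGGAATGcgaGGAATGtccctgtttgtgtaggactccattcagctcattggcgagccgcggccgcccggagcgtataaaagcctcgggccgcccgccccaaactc
ANKRD1: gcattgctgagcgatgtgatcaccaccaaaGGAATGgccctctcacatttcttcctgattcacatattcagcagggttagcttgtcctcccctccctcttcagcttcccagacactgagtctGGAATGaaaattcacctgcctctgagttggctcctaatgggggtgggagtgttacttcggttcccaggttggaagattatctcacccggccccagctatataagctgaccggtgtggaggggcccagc
The first bases of the matches lay at -169, -104 and -95 from the start in CCN2 and at -220 and -128 in ANKRD1. The single matches of YAP1 at -162 and of AMOTL2 at -69, the latter before the second of its RefSeq starts, are shown with 10 bases on either side.
YAP1: ggagtgtgcaGGAATGtagcaacttg
AMOTL2: gaaactctcaCATTCCtggcatagca

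Total counts per library ran from 42860665 to 60853649. Counts were scaled to a common library size with TMM factors (CPM), and a gene was called when its adjusted p in the edgeR quasi-likelihood test was under 0.05 and its absolute log2 change over 1. JUN stood at 18.04 to 25.3 CPM in the 6 vehicle libraries and at 422.2 to 813.5 CPM in the 6 doxycycline libraries, and FOS at 11.2 to 37.6 CPM against 998.7 to 1686 CPM, so no library went against its label. Transgene and endogenous reads fall into the same counts. TC71 vehicle replicate 1 stood apart from its group, with a chi-square per gene of 63.9 and 61.7 against the other TC71 vehicle libraries where the remaining 10 replicate pairs gave 5.40 to 11.03, and the responses of the 10 genes in TC71 are therefore given with and without it. All 10 Ewing sarcoma markers, such as CD99, FLI1 and NR0B1, were above the detection floor of 6 counts in every group, with summed levels of 3325 to 3432 CPM in EW8 and 3034 to 3386 CPM in TC71. Single markers did move with doxycycline. By the adjusted p alone 5 fell and 2 rose in EW8, where 22% of all tested genes fell and 21.9% rose. In TC71 5 fell and 3 rose, where 20.4% fell and 25.1% rose. LIPI was called lower in EW8 (log2 -1.40) and PAPPA higher in TC71 (log2 2.66). Of 8 markers of blood, endothelial and epithelial cells, 2 were at the floor in EW8 vehicle libraries, 1 in EW8 with doxycycline, 7 in TC71 vehicle libraries and 4 in TC71 with doxycycline. Their summed level was 73.2 to 81.1 CPM with vehicle and 111.3 to 120.9 CPM with doxycycline in EW8, and 0.420 to 1.26 against 15.5 to 16.2 CPM in TC71. Most of the EW8 sum was PTPRC, a marker of blood cells, whose mean was 65.9 CPM in the vehicle samples and 74.9 CPM in the doxycycline samples. Of the 5 tested, the endothelial marker PECAM1 was called higher in both lines, from 7.07 ± 0.825 to 37.5 ± 4.12 CPM in EW8 and from 0 to 3.66 ± 0.542 CPM in TC71 (SD, n = 3). CDH5, also endothelial, went from 0.873 ± 0.830 to 0.601 ± 0.296 CPM in EW8 (adjusted p 0.579) and from 0.0257 ± 0.0222 to 0.173 ± 0.0715 CPM in TC71, where it was called higher (adjusted p 0.0348). Most of the TC71 sum with doxycycline was the epithelial marker EPCAM, called higher there at 0.707 ± 0.481 against 11.9 ± 0.644 CPM (adjusted p 1.91e-08) but not in EW8 (adjusted p 0.275). The part of these markers in the results below was not tested. In bulk samples such as these, fewer cells of a type and less RNA per cell cannot be told apart.

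The comparison of doxycycline with vehicle asked how the co-activators, their TEAD partners and their targets responded to induced c-Jun and c-Fos. All 4 target genes were upregulated in EW8, while YAP1 and TEAD4 rose and WWTR1 and TEAD2 fell by small amounts. In TC71 the targets CCN1, CCN2 and AMOTL2 were upregulated as well, but WWTR1 also rose there and YAP1 did not pass the test. In EW8, 3 of the 10 genes were called higher (CCN1, CCN2 and ANKRD1) and 0 lower, against 11.4% and 3.38% of the 21013 genes tested. With the adjusted p alone, 6 rose and 2 fell, where 21.9% of all tested genes rose, 22% fell and 43.9% passed in either direction. In TC71, 3 were called higher (WWTR1, CCN1 and ANKRD1) and 0 lower, against 12.3% and 3.67% of all tested genes. With the adjusted p alone, 7 rose and 1 fell, where 25.1% of all tested genes rose, 20.4% fell and 45.6% passed in either direction. The groups did not overlap for 8 of the 10 genes in each line, against 56% of tested genes in EW8 and 50.7% in TC71. The median log2 change of the 10 genes was 0.39 in EW8, where that of all tested genes was -0.03. In TC71 it was 0.60, or 0.34 with ANKRD1 set to no change because both of its groups were at the floor, and that of all tested genes was 0. Without TC71 vehicle replicate 1 the number called higher in TC71 dropped to 1, CCN1. The numbers called with all libraries include ANKRD1 in both lines, which passed the filter on low counts through the EW8 doxycycline libraries alone.

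**Figure D1:**
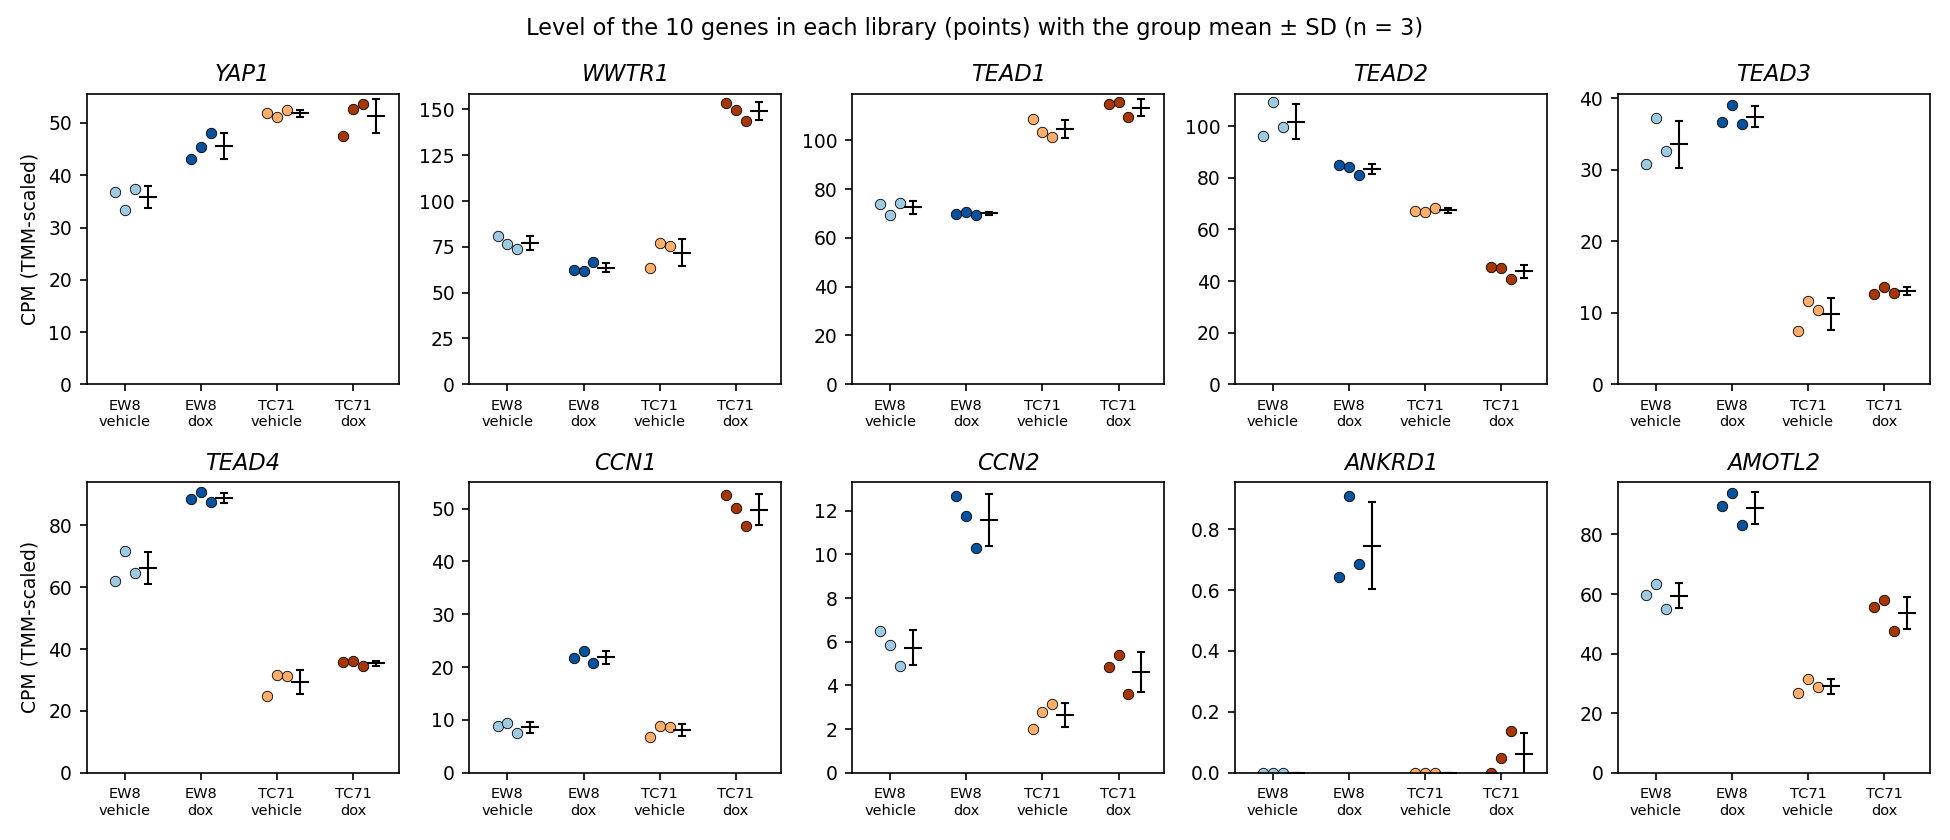
Level of each of the 10 genes in CPM, TMM-scaled, on linear axes that start at 0. Points are the 3 libraries of a group and the bars beside them the mean ± SD. CCN1 reached 46.7 to 52.5 CPM in the TC71 doxycycline libraries, WWTR1 lay above all other libraries only there, and ANKRD1 stayed under 1 CPM throughout.

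YAP1 (ENSG00000137693.13, hg38 chromosome 11, 102110461 to 102233423, plus strand) encodes the co-activator YAP. It lay at 36.8, 33.4 and 37.3 CPM in the EW8 vehicle libraries and at 43.1, 45.4 and 48.1 CPM with doxycycline. All 3 doxycycline libraries were above the vehicle libraries, and the log2 change was 0.35 (adjusted p 7.78e-04, SE 0.07). In TC71 it lay at 51.9, 51.1 and 52.4 CPM with vehicle and at 47.5, 52.7 and 53.6 CPM with doxycycline. Those groups overlapped, and the log2 change of -0.01 (95% interval -0.18 to 0.15, adjusted p 0.909) was -0.09 without TC71 vehicle replicate 1 (adjusted p 0.361). Set against EW8, the TC71 response of YAP1 was lower, at a log2 difference of -0.36 (adjusted p 0.019, SE 0.10). That difference missed the threshold without EW8 vehicle replicate 2 (adjusted p 0.0504) or without TC71 doxycycline replicate 1 (adjusted p 0.0654). Of the exon bases of YAP1, 9.97% are shared with another annotated gene, and reads there were left out by the counting.

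WWTR1 (ENSG00000018408.14, chromosome 3, 149517235 to 149736714, minus strand) encodes TAZ, the paralog of YAP. Its levels in EW8 were 80.9, 76.8 and 73.6 CPM with vehicle and 62.4, 61.9 and 66.8 CPM with doxycycline. All doxycycline libraries lay below, with a log2 change of -0.28 (adjusted p 0.00409, SE 0.07). That fall missed the threshold without EW8 doxycycline replicate 1 (adjusted p 0.0880) or replicate 2 (adjusted p 0.0897). In TC71 the levels went the other way, from 63.4, 76.8 and 75.4 CPM to 153.6, 149.8 and 143.8 CPM. Each TC71 doxycycline library exceeded every vehicle library of either line. The log2 change was 1.05 (adjusted p 6.87e-10, SE 0.07), and 0.89 (adjusted p 4.75e-12) without TC71 vehicle replicate 1. It was at or under the fold limit in 7 of 20 alternatives, which ran from 0.89 to 1.10. The difference between the lines, 1.33 on the log2 scale (adjusted p 2.89e-08, SE 0.10), was 1.12 without that library (adjusted p 9.07e-11). WWTR1 shares 9.45% of its exon bases with its antisense gene WWTR1-AS1, and the counting did not use strand.

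Levels of the co-activators can be set side by side only per kilobase of exon (RPKM). The sum of YAP1 and WWTR1 was 14.9 ± 0.540 RPKM in EW8 vehicle libraries and 14.8 ± 0.686 RPKM with doxycycline, and 16.8 ± 0.854 against 25.9 ± 0.289 RPKM in TC71 (SD, n = 3). WWTR1 made up 62.2%, 63.2% and 59.6% of that sum in EW8 vehicle libraries and 52.0%, 50.5% and 50.9% with doxycycline. In TC71 its share was 47.8%, 52.9% and 51.8% with vehicle and 70.7%, 68.0% and 66.7% with doxycycline. The share was therefore lower in all EW8 doxycycline libraries and higher in all TC71 doxycycline libraries than in the vehicle libraries of the same line, by -10.5 and 17.7 percentage points. The mean over both lines, 3.56 points, did not pass an exact two-sided permutation test within lines (p = 0.49, adjusted p 0.49 over 6 balances). The TC71 difference was 16.1 points without TC71 vehicle replicate 1, and the mean over both lines 2.79 points (exact permutation adjusted p 0.61). The responses of the lines lay 28.2 points apart, or 26.6 without that library, and this gap was not tested. Within 1 line the smallest two-sided p is 0.1, so neither line could pass alone.

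TEAD1 to TEAD4 are paralogous factors that bring YAP and TAZ to DNA and carry no strong activation domain of their own. TEAD1 (ENSG00000187079.16, chromosome 11, 12674591 to 12944483, plus strand) lay at 73.9, 69.5 and 74.1 CPM in EW8 vehicle libraries and at 69.8, 70.7 and 69.5 CPM with doxycycline. In TC71 it lay at 108.6, 103.5 and 101.4 CPM with vehicle and at 114.9, 115.7 and 109.4 CPM with doxycycline. The EW8 groups overlapped and the TC71 groups did not. Neither log2 change passed, at -0.05 in EW8 (95% interval -0.18 to 0.08, adjusted p 0.511) and 0.12 in TC71 (-0.01 to 0.24, adjusted p 0.0944), or 0.07 without TC71 vehicle replicate 1 (adjusted p 0.401).

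TEAD2 (ENSG00000074219.13, chromosome 19, 49340595 to 49362457, minus strand) was the TEAD that fell in both lines. Its levels went from 96.2, 109.2 and 99.8 CPM to 84.8, 84.2 and 81.1 CPM in EW8, a log2 change of -0.29 (adjusted p 0.00114, SE 0.06). In TC71 they went from 67.1, 66.7 and 68.3 CPM to 45.6, 44.9 and 40.6 CPM, a log2 change of -0.62 (adjusted p 2.33e-07, SE 0.06). All doxycycline libraries lay below all vehicle libraries of their line. The fall was larger in TC71 by -0.34 (adjusted p 0.0128, SE 0.09) and, without TC71 vehicle replicate 1, the TC71 fold change was -0.71 and the difference -0.47. TEAD2 shares 10.7% of its exon bases with CD37.

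TEAD3 (ENSG00000007866.20, chromosome 6, 35473597 to 35497076, minus strand) gave 30.8, 37.2 and 32.6 CPM in EW8 vehicle libraries and 36.7, 39.0 and 36.4 CPM with doxycycline, overlapping ranges with a log2 change of 0.16 (adjusted p 0.340, SE 0.12). In TC71 it gave 7.39, 11.7 and 10.4 CPM with vehicle and 12.6, 13.6 and 12.7 CPM with doxycycline, a log2 change of 0.40 (adjusted p 0.0190, SE 0.13). The lowest of these values is TC71 vehicle replicate 1, and without it the fold change was 0.15 (adjusted p 0.268). TEAD4 (ENSG00000197905.8, chromosome 12, 2959330 to 3040673, plus strand) went from 62.0, 71.8 and 64.5 CPM to 88.5, 90.7 and 87.4 CPM in EW8, all above, with a log2 change of 0.43 (adjusted p 3.72e-04, SE 0.08). In TC71 it went from 24.8, 31.6 and 31.3 CPM to 35.8, 36.0 and 34.4 CPM, also all above. The log2 change there was 0.28 (adjusted p 0.0134, SE 0.09), or 0.09 (adjusted p 0.338) without TC71 vehicle replicate 1, again the lowest library. In TC71 both TEAD3 and TEAD4 also missed the threshold when any 1 EW8 doxycycline replicate was left out. The responses of TEAD3 and TEAD4 did not pass the test of a difference between the lines (adjusted p 0.413 and 0.446), with 95% intervals of -0.17 to 0.66 and -0.43 to 0.12. Without TC71 vehicle replicate 1, the response of TEAD4 was lower in TC71 by -0.38 (adjusted p 0.00360).

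Per kilobase, the 4 TEADs summed to 81.3 ± 5.35 RPKM in EW8 vehicle libraries and 86.2 ± 1.73 RPKM with doxycycline, and to 48.9 ± 2.14 and 45.5 ± 1.68 RPKM in TC71 (SD, n = 3). Within that sum the share of TEAD2 was lower and that of TEAD4 higher with doxycycline in both lines. TEAD2 held 42.0 ± 0.0115% of the sum in EW8 vehicle libraries and 32.5 ± 0.453% with doxycycline, and 46.3 ± 1.99% and 32.2 ± 0.845% in TC71. TEAD4 held 35.8 ± 0.425% and 45.4 ± 0.207% in EW8, and 26.3 ± 2.38% and 34.2 ± 0.447% in TC71. Averaged over the lines, the TEAD2 share fell by 11.8 percentage points and the TEAD4 share rose by 8.80 points (exact permutation p = 0.005, the smallest that 400 arrangements allow, and adjusted p 0.01 for each). Whether these shares moved unequally in the lines was not tested. The TEAD3 share rose by 1.75 points (exact permutation p = 0.01, adjusted p 0.015), from 13.5% to 14.2% in EW8 and from 6.58% to 9.36% in TC71. The 4 shares add up to the whole, so a lower TEAD2 share must raise others and the share tests are not separate results. The TEAD3 level itself did not pass the edgeR test in EW8 (adjusted p 0.340), nor in TC71 without vehicle replicate 1 (adjusted p 0.268). In a fit of the EW8 libraries alone it did pass in EW8 (adjusted p 0.0324). The TEAD1 share went from 8.71% to 7.90% in EW8 and from 20.9% to 24.2% in TC71, and its mean difference of 1.28 points did not pass (exact permutation adjusted p 0.21). Without TC71 vehicle replicate 1 the mean differences of TEAD2, TEAD3 and TEAD4 were -11.3, 1.41 and 8.11 points, with adjusted p of 0.01, 0.015 and 0.01, and that of TEAD1 was 1.76 points (adjusted p 0.174).

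**Figure D2:**
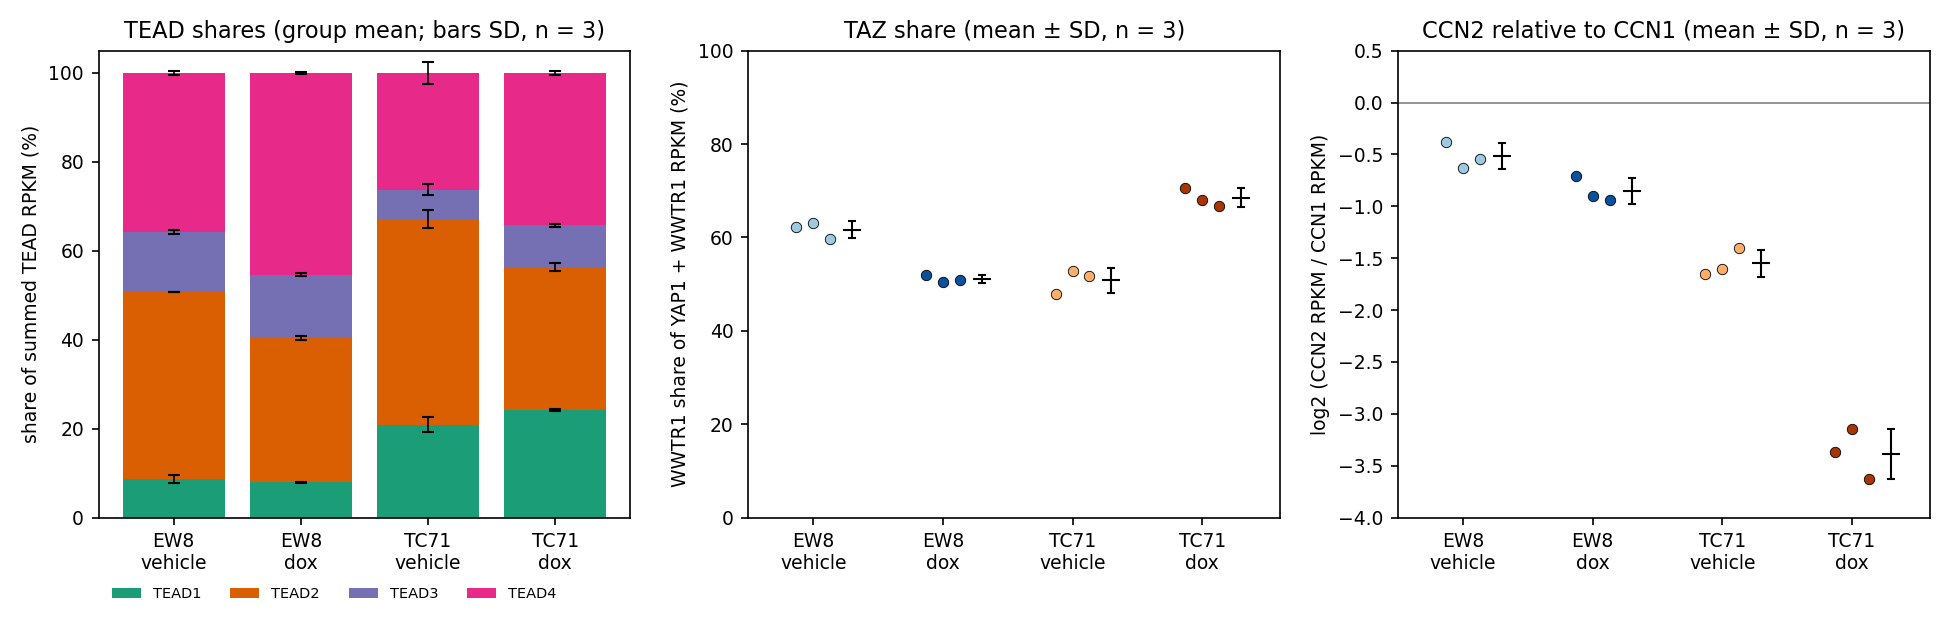
Left, mean share of each TEAD in the summed TEAD RPKM of a group in percent, with the SD (n = 3) drawn at the top of each segment. Middle, WWTR1 share of YAP1 plus WWTR1 RPKM in percent, and right, the log2 ratio of CCN2 to CCN1 RPKM, with points for libraries and the mean ± SD beside them. With doxycycline the TEAD2 segment was narrower and the TEAD4 segment wider in both lines, while the WWTR1 share was lower in EW8 (51.1%) and higher in TC71 (68.5%).

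Of the targets, CCN1 (ENSG00000142871.16, chromosome 1, 85580761 to 85583962, plus strand), which encodes a secreted matricellular protein that binds integrins, rose most in TC71. It lay at 8.89, 9.46 and 7.44 CPM in EW8 vehicle libraries and at 21.8, 23.1 and 20.7 CPM with doxycycline, a log2 change of 1.35 (adjusted p 2.65e-08, SE 0.12). In TC71 it lay at 6.68, 8.82 and 8.73 CPM with vehicle and at 52.5, 50.2 and 46.7 CPM with doxycycline, a log2 change of 2.62 (adjusted p 2.07e-12, SE 0.12). The vehicle levels of the lines overlapped, the doxycycline levels of both lines lay above all vehicle libraries, and those of TC71 lay above those of EW8. The TC71 response exceeded that of EW8 by 1.27 on the log2 scale (adjusted p 1.61e-05, SE 0.16), and by 1.03 (adjusted p 4.51e-06) without TC71 vehicle replicate 1, where the TC71 response was 2.42. Over 20 alternative settings in each line the CCN1 response stayed within 1.29 to 1.43 in EW8 and within 2.42 to 2.69 in TC71.

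CCN2 (ENSG00000118523.5, chromosome 6, 131948176 to 131951373, minus strand), its relative and a classical readout of fibrosis, whose promoter holds the 3 matches shown above, was lower than CCN1 throughout. Levels were 6.50, 5.84 and 4.87 CPM in EW8 vehicle libraries and 12.7, 11.8 and 10.3 CPM with doxycycline. In TC71 they were 2.02, 2.77 and 3.14 CPM with vehicle and 4.85, 5.40 and 3.595 CPM with doxycycline. In both lines all doxycycline libraries lay above the vehicle libraries. The log2 change was 1.02 in EW8 (adjusted p 1.99e-04, SE 0.19), just over the fold limit and at or under it in 3 of 20 alternatives. In TC71 it was 0.80 (adjusted p 0.00259, SE 0.20), or 0.56 (adjusted p 0.0186) without TC71 vehicle replicate 1. The responses did not pass the test of a difference (-0.22, 95% interval -0.84 to 0.41, adjusted p 0.667). The log2 ratio of CCN2 to CCN1 RPKM was -0.38, -0.63 and -0.54 in EW8 vehicle libraries and -0.71, -0.90 and -0.94 with doxycycline. In TC71 it was -1.65, -1.60 and -1.40 with vehicle and -3.37, -3.15 and -3.63 with doxycycline. The ratio was lower in every doxycycline library than in the vehicle libraries of its line, by a mean of -1.08 (exact permutation p = 0.005, adjusted p 0.01). That mean was -1.11 without TC71 vehicle replicate 1 (adjusted p 0.01). The ratio moved by -0.33 in EW8 and by -1.83 in TC71, or -1.88 in TC71 without that library, and the gap between the lines was not tested. CCN2 shares 8.34% of its exon bases with an overlapping gene.

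ANKRD1 (ENSG00000148677.6, chromosome 10, 90912096 to 90921276, minus strand), which encodes a stress-responsive ankyrin repeat protein of muscle and endothelium, had 0 counts in all 6 vehicle libraries. With doxycycline it had 36, 46 and 30 counts in EW8, or 0.644, 0.909 and 0.685 CPM. In TC71 it had 0, 2 and 6 counts with doxycycline. The EW8 doxycycline libraries were thus the only group above the floor of 6 counts per library, and the level there was at least 5.51-fold higher than with vehicle (adjusted p 2.87e-04). ANKRD1 passed the filter on low counts through this group alone, so its adjusted p-values in edgeR describe the counts and are no independent test. Both TC71 groups were at or under the floor, so no fold is given. The edgeR call in TC71 (adjusted p 0.0324) rests on 8 counts in 2 libraries and missed the threshold without TC71 vehicle replicate 1 (adjusted p 0.0581). Its floor covers counting error only.

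AMOTL2 (ENSG00000114019.14, chromosome 3, 134355874 to 134375479, minus strand), an angiomotin that is both a target and an inhibitor of YAP, lay at 59.7, 63.4 and 55.1 CPM in EW8 vehicle libraries and at 89.5, 93.8 and 83.2 CPM with doxycycline. In TC71 it lay at 26.7, 31.5 and 28.8 CPM with vehicle and at 55.5, 58.0 and 47.8 CPM with doxycycline. No doxycycline library overlapped the vehicle libraries of its line. The log2 change was 0.58 in EW8 (adjusted p 1.66e-05, SE 0.08) and 0.89 in TC71 (adjusted p 9.59e-08, SE 0.09), or 0.75 in TC71 without vehicle replicate 1 (adjusted p 3.33e-08), all under the fold limit. The difference of 0.31 had a 95% interval of 0.03 to 0.58 and an adjusted p of 0.0847. It passed without TC71 vehicle replicate 2 (adjusted p 0.0447) or without TC71 doxycycline replicate 3 (adjusted p 0.0325).

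**Figure D3:**
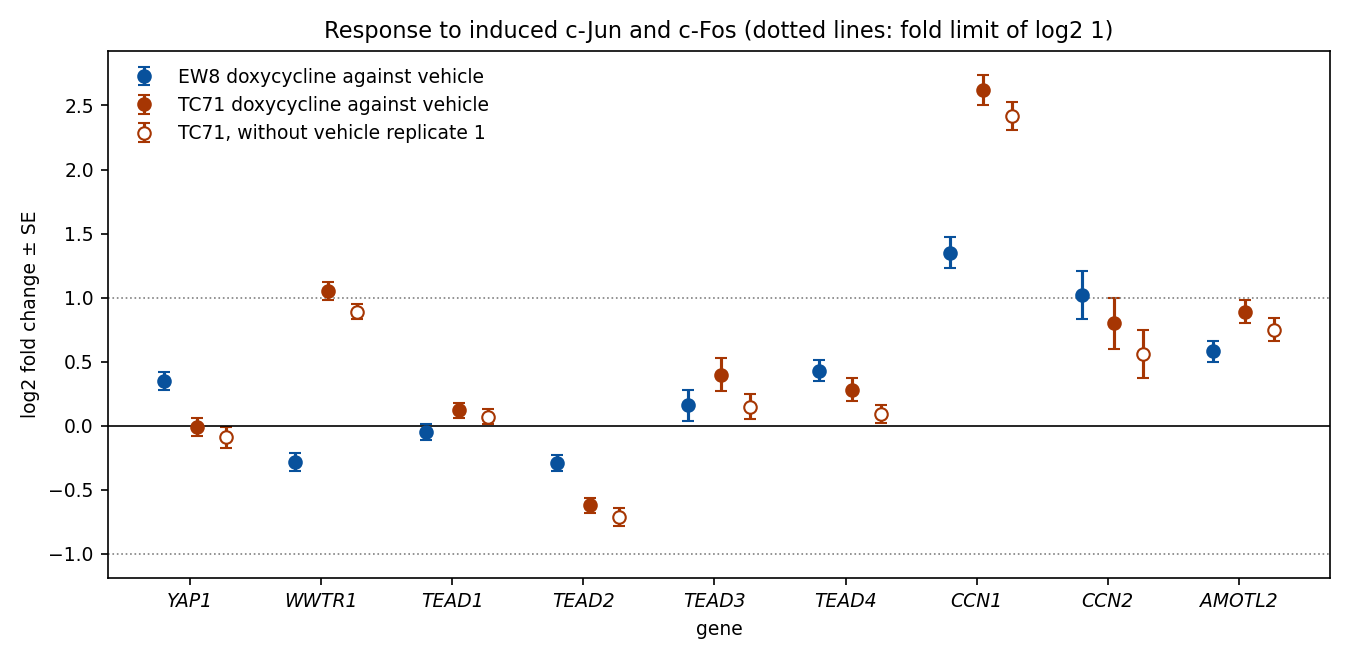
Log2 fold change of doxycycline against vehicle ± SE for 9 of the genes, with EW8 in blue, TC71 in filled brown and TC71 without vehicle replicate 1 in open brown. ANKRD1 is left out because its vehicle libraries were all at 0, and dotted lines mark the fold limit. The lines moved apart for WWTR1 (-0.28 and 1.05), and CCN1 had the highest value in each line.

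Over the difference of the responses, 2 of the 10 genes were called, WWTR1 and CCN1, both higher in TC71, against 4.18% of all tested genes called higher and 2.87% called lower. With the adjusted p alone, YAP1 and TEAD2 were also lower in TC71, where 12.2% of all tested genes were higher, 7.07% lower and 19.3% passed in either direction. ANKRD1 gave no usable value in this contrast, since both vehicle groups were at 0.

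The lines also differed in where the genes started. Under vehicle, 0 of the 10 genes were called higher in TC71 and 4 lower (TEAD3, TEAD4, CCN2 and AMOTL2), against 11.6% and 18.9% of all tested genes. By the adjusted p alone 2 were higher and 5 lower, against 28.2% and 33.5% (61.7% in either direction), and the groups did not overlap for 7 of the 10, against 64.7%. The log2 differences were -1.77 for TEAD3 (adjusted p 1.09e-09, SE 0.13), -1.18 for TEAD4 (adjusted p 9.69e-10, SE 0.09), -1.11 for CCN2 (adjusted p 6.95e-05, SE 0.20) and -1.03 for AMOTL2 (adjusted p 6.30e-09, SE 0.09). Without TC71 vehicle replicate 1 they were -1.49, -0.96, -0.84 and -0.87, all past the adjusted p but only TEAD3 past the fold limit. YAP1 and TEAD1 were each higher in TC71 by 0.53 (adjusted p 4.27e-06 and 1.46e-07), and TEAD2 was lower by -0.59 (adjusted p 1.84e-07). WWTR1 and CCN1 did not pass, at -0.10 (95% interval -0.26 to 0.06) and -0.08 (-0.36 to 0.19), so the co-activator and the target with the largest TC71 responses among the members started at levels whose difference was not detected. With doxycycline, WWTR1 and CCN1 were called higher in TC71, by 1.23 (adjusted p 4.72e-11) and 1.19 (adjusted p 3.34e-08), against 12.6% of all tested genes. TEAD3, TEAD4, CCN2 and ANKRD1 were called lower, against 18.4%, and ANKRD1 was at least 5.13-fold lower. ANKRD1 passed the filter on low counts through the EW8 doxycycline group alone, so its call here is no independent test. It is also among the lower and the non-overlapping genes counted next. By the adjusted p alone 4 were higher and 6 lower, against 30.2% and 32.3% (62.5% in either direction), and the groups did not overlap for 9 of the 10, against 69.6%. The small YAP1 difference with doxycycline (0.17, adjusted p 0.0487) missed the threshold in 16 of 19 alternatives.

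The order of the genes by level per kilobase showed the same shifts. In EW8 vehicle libraries it ran from TEAD2 (34.1 RPKM) and TEAD4 (29.1) through TEAD3 (11.01), AMOTL2 (9.93), WWTR1 (9.16), TEAD1 (7.05), YAP1 (5.70), CCN1 (3.50) and CCN2 (2.45) to ANKRD1 (0). Only the neighbours TEAD3 and AMOTL2, and AMOTL2 and WWTR1, had overlapping ranges. With doxycycline TEAD4 (39.1 RPKM) stood above TEAD2 (28.0), CCN1 (8.90) moved above WWTR1 (7.57), YAP1 (7.24) and TEAD1 (6.81), and the ranges of WWTR1 and YAP1, and of YAP1 and TEAD1, overlapped. In TC71 vehicle libraries TEAD2 (22.6 RPKM) again led, before TEAD4 (12.9), TEAD1 (10.2), WWTR1 (8.54), YAP1 (8.23), AMOTL2 (4.85), CCN1 (3.29), TEAD3 (3.23), CCN2 (1.13) and ANKRD1 (0), with overlap between WWTR1 and YAP1 and between CCN1 and TEAD3. With doxycycline CCN1 (20.3 RPKM) and WWTR1 (17.7) stood above all 4 TEADs in TC71. TEAD4 (15.6) and TEAD2 (14.7) came next with overlapping ranges, and AMOTL2 (8.98) and YAP1 (8.15) also overlapped.

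Genes around the members were followed in 5 lists that hold 67 genes, of which 60 passed the filter on low counts. In EW8 15 were called higher and 0 lower, and in TC71 22 were called higher and 1 lower, where 11.4% and 3.38% of all tested genes were called in EW8 and 12.3% and 3.67% in TC71. Without TC71 vehicle replicate 1 the TC71 counts were 20 and 2, with MAP4K4 and MRTFA no longer called and AMOT called lower. The TC71 log2 changes of list genes described next were then 9.11 for NT5E, 6.37 for MYOF, 3.92 for CCDC80, 5.95 for AXL, 3.36 for CDC42EP3, 2.19 for CNN1, 1.34 for FRMD6 and 1.51 for VGLL3. They were -0.74 for STK4, -0.53 for LATS1, 0.47 for LATS2, -0.95 for ARHGEF17 and -1.20 for RBMS3, each in the same direction as with all libraries.

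Most of the 21 Hippo core genes act to restrain YAP and TAZ, while the LIM proteins LIMD1 and AJUBA hold the LATS kinases back. In EW8, 1 of the 21 was called higher, a share below the 11.4% of all tested genes, and 0 lower, and by the adjusted p alone 10 rose and 6 fell, where 21.9% of all tested genes rose and 22% fell. In TC71, 5 were called higher and 0 lower, beside 12.3% and 3.67% of all tested genes, and 12 rose and 4 fell, beside 25.1% and 20.4%. LIMD1 rose (0.57 and 0.59 in EW8 and TC71) and AJUBA fell (-0.91 and -0.61), both named after their values were seen. The median log2 change of the 21 genes was 0.17 in EW8 and 0.32 in TC71. The gene called in both lines was FRMD6, a membrane scaffold of the pathway, which went from 5.30 ± 0.824 to 13.5 ± 0.795 CPM in EW8 (log2 1.35) and from 12.1 ± 1.85 to 29.8 ± 0.536 CPM in TC71 (log2 1.31). DCHS1, a giant cadherin that acts upstream of the kinases, had the largest difference of the list. It went from 26.0 ± 0.514 to 43.8 ± 2.87 CPM in EW8 and from 3.50 ± 1.38 to 22.0 ± 1.43 CPM in TC71, and the TC71 response exceeded that of EW8 by 1.88 (adjusted p 1.44e-05, SE 0.24), or by 1.49 without TC71 vehicle replicate 1. The kinases themselves went both ways, and were named after their values were seen. STK4 fell, with log2 changes of -0.86 in EW8 and -0.73 in TC71, and LATS1 fell as well (-0.53 and -0.42). STK3, the other MST kinase, did not pass in EW8 (0.08, adjusted p 0.402) or in TC71 (-0.08, adjusted p 0.452). TAOK3 (1.32) and MAP4K4 (1.05) were called higher in TC71 but not in EW8 (0.17 and 0.35), and TAOK1 and TAOK2 were called in neither line. LATS2, itself a YAP target, rose by 0.41 (adjusted p 0.00307) and 0.65 (adjusted p 2.89e-05).

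The second list held 12 proteins that bind YAP, TAZ or TEAD or drive the turnover of the co-activators, and 10 were tested. In EW8, 2 were called higher and 6 rose by the adjusted p alone, in TC71 3 were called higher and 9 rose, and 0 fell in either line. Of all tested genes, 11.4% were called higher and 21.9% rose in EW8, and 12.3% and 25.1% did so in TC71, so the EW8 count called lay near the background. VGLL3, a TEAD-binding cofactor that competes with YAP for the same surface, went from 7.75 ± 0.401 to 23.0 ± 1.02 CPM in EW8 (log2 1.57, adjusted p 4.63e-09) and from 48.1 ± 10.6 to 127.2 ± 5.31 CPM in TC71 (log2 1.40, adjusted p 4.18e-09). RUNX2, an osteoblast transcription factor that binds YAP and TAZ, went from 1.56 ± 0.371 to 8.93 ± 0.342 CPM in EW8 and from 9.68 ± 1.57 to 24.8 ± 1.52 CPM in TC71. Its response was smaller in TC71 by -1.15 (adjusted p 9.87e-04, SE 0.22), or by -1.41 without TC71 vehicle replicate 1.

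Of 18 other genes in wide use as YAP and TAZ targets, 17 were tested. In EW8, 9 were called higher and 0 lower, and in TC71 9 were called higher and 1 lower, beside the 11.4% and 12.3% of all tested genes called higher. Their median log2 change was 1.67 in EW8 and 1.73 in TC71, the latter 1.61 with FOXF2, whose TC71 groups were both at the floor, set to no change. NT5E, the surface enzyme CD73 that makes adenosine, went from 0.199 ± 0.0831 to 273.5 ± 10.2 CPM in EW8 and from 1.11 ± 0.371 to 574.4 ± 15.7 CPM in TC71. MYOF, a membrane repair protein, went from 0.308 ± 0.0886 to 38.6 ± 2.28 CPM and from 1.49 ± 0.350 to 126.9 ± 3.36 CPM. CCDC80, a secreted matrix protein, went from 0.251 ± 0.141 to 9.37 ± 1.29 CPM and from 13.5 ± 1.40 to 225.9 ± 2.74 CPM. For these 3 genes the log2 changes were 10.46, 6.99 and 5.24 in EW8 and 9.05, 6.42 and 4.06 in TC71. In EW8 vehicle libraries they had 6 to 18 counts per library, near the floor of 6, so the size of the EW8 changes is imprecise. AXL, a receptor tyrosine kinase, went from 17.1 ± 0.407 to 134.4 ± 1.76 CPM in EW8 and from 1.46 ± 0.376 to 109.3 ± 6.13 CPM in TC71. It was lower in TC71 both under vehicle (log2 -3.54, adjusted p 1.47e-14) and with doxycycline (log2 -0.30, adjusted p 0.00387). The response of TC71 exceeded that of EW8 by 3.24 (adjusted p 1.91e-11, SE 0.14), or by 2.92 without TC71 vehicle replicate 1. Both ARHGEF17 and RBMS3, named after their values were seen, fell in both lines, with log2 changes of -1.0 and -0.84 in EW8 and -0.85 and -1.18 in TC71, and RBMS3 was the gene called lower in TC71.

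Of the 6 relatives of CCN1, CCN2 and ANKRD1, 3 were tested and 1, CCN3, was called in each line. CCN3, a matricellular protein often set against CCN2, went from 2.38 ± 0.449 to 33.9 ± 1.35 CPM in EW8 and from 1.44 ± 0.665 to 6.52 ± 0.887 CPM in TC71. Its response was smaller in TC71 by -1.68 (adjusted p 8.74e-04, SE 0.32), or by -2.11 without TC71 vehicle replicate 1, where that of CCN1 was larger. Of 12 genes of the actin and serum response side of mechanical signalling, 11 were tested, 2 were called higher in EW8 and 5 in TC71, and 8 rose by the adjusted p alone in each line with 0 falling. Over all tested genes the shares were 11.4% called higher and 21.9% risen in EW8, and 12.3% and 25.1% in TC71, so 2 of 11 in EW8 lay near the background. CDC42EP3, an effector of CDC42, went from 2.94 ± 0.370 to 45.7 ± 1.61 CPM in EW8 and from 19.3 ± 1.97 to 220.1 ± 5.37 CPM in TC71. CNN1, a smooth muscle calponin, went from 4.02 ± 0.787 to 14.8 ± 1.35 CPM in EW8 and from 0.0796 ± 0.0805 to 0.604 ± 0.249 CPM in TC71.

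**Figure D4:**
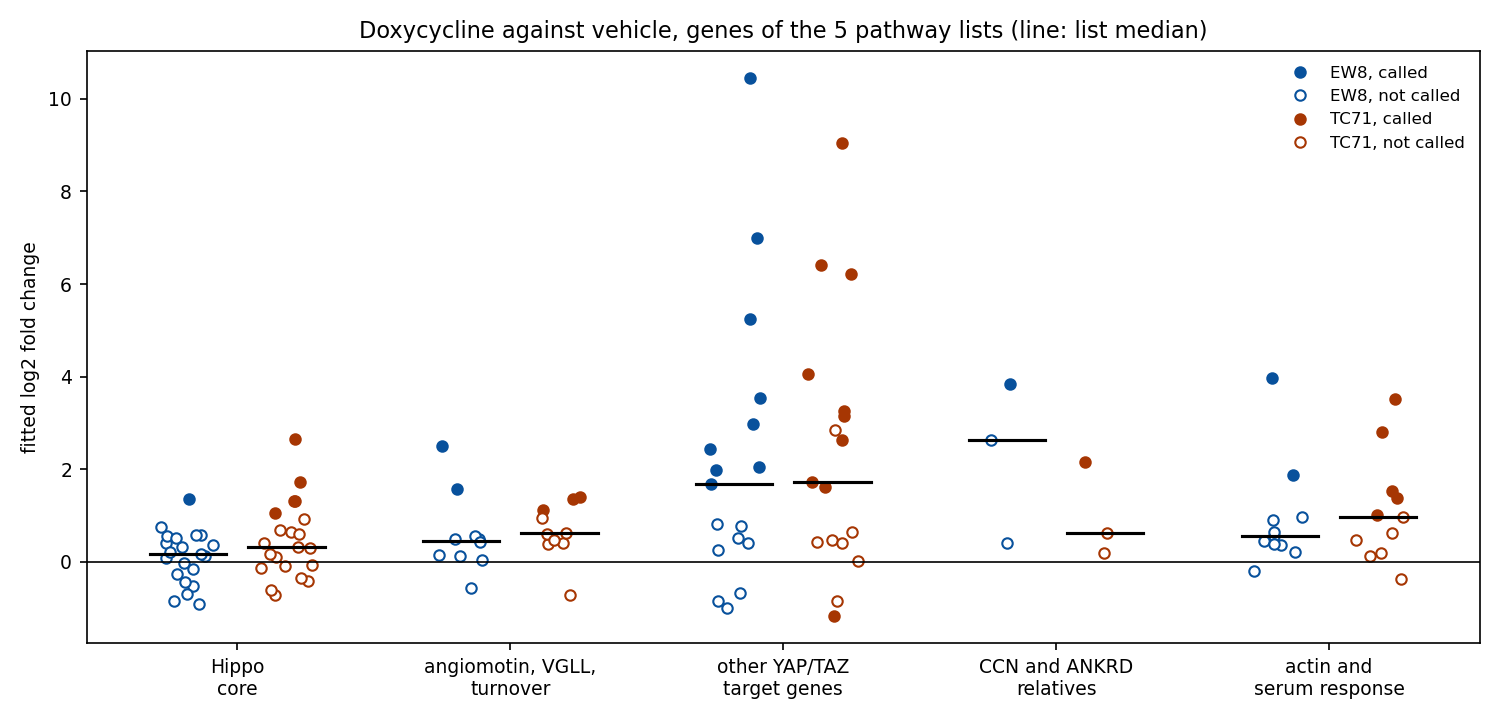
Fitted log2 change of doxycycline against vehicle for each tested gene of the 5 lists, EW8 in blue and TC71 in brown, with called genes filled and list medians as lines. The other YAP and TAZ target genes reach the highest values (10.46 in EW8 for NT5E, whose vehicle counts there were near the floor). The Hippo core genes lie on both sides of 0 with medians of 0.17 and 0.32.

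The genes whose log2 CPM over the 12 libraries was most like that of a target were listed for the 4 targets, among 14970 genes for CCN1, CCN2 and AMOTL2 and 14971 for ANKRD1. The points share 2 lines and 1 induction, so these values are descriptions. CCN1 was followed most closely by RAB3B (Pearson r 0.995), MSN (0.994) and ABCC3 (0.994), and CCN2 by TNFRSF1A (0.983), HERC6 (0.982) and CD99 (0.980). The genes that followed ANKRD1 included FAM180A (0.989) and CXCL2 (0.988). ANKRD1 was above the floor in the EW8 doxycycline libraries alone, so its r values mainly mark genes that were high in that group. AMOTL2 was followed by CSNK1E (0.994), FXYD5 (0.992) and NCS1 (0.992). CSNK1E, a casein kinase that marks YAP and TAZ for degradation, was also in the second list.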

How the data were processed

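Polyadenylated RNA was prepared with a stranded kit, and the authors mapped reads to hg38 (STAR) and counted them over GENCODE release 29 exons (featureCounts 2.0.1). The deposited values are raw counts per gene. Per the file headers, options for read pairs, strand, multi-mapped and overlapping reads were off, so both mates were counted (67.3% to 69.8% of counts between 20 and 199 were even) and reads on more than 1 gene were left out. Of 58721 genes, 58207 had a symbol for their identifier. The 10 genes, the lists and the markers were chosen with earlier results of these data known.

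Tests used edgeR 4.0.16 in R 4.3.3 (filterByExpr, 21013 genes with 99.95% of counts, TMM, 1 quasi-likelihood fit of all 12 libraries, Benjamini-Hochberg over all genes tested). Calls needed an adjusted p below 0.05 with a log2 fold change beyond 1 in either direction. The study used DESeq2, run here in version 1.42.0 as an alternative. RPKM values are TMM-scaled counts per kilobase of the deposited exon length. Shares were tested by exact two-sided permutation within lines (400 arrangements). A group was at the floor when no library exceeded 6 counts, which is 3 read pairs, and a bound divides the mean CPM of the higher group by the largest floor of the lower. Named list genes were up to 3 called in the same direction in both lines with the largest smaller change, the gene with the largest called difference between lines, and any called lower in both. Likeness used Pearson r of log2(CPM + 0.5) among genes with a mean of at least 1 CPM. The fit was tested on simulated data. A gene that the rule for similar patterns named is not reported here.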

Additional observations from a re-analysis of the deposited data

Results flagged for a closer look

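The responses to doxycycline differed between the lines for 4 of the 10 genes by the interaction test in edgeR (adjusted p under 0.05). Of all tested genes 19.3% did so, 12.2% higher and 7.07% lower in TC71. TC71 minus EW8, the log2 difference was 1.33 for WWTR1 and 1.27 for CCN1, higher in TC71, and -0.36 for YAP1 and -0.34 for TEAD2, lower in TC71. That of YAP1 missed the threshold without EW8 vehicle replicate 2 (adjusted p 0.0504) or without TC71 doxycycline replicate 1 (adjusted p 0.0654). The WWTR1 share of YAP1 plus WWTR1 moved by amounts that lay 28.19 percentage points apart, a gap that was not tested, and every EW8 doxycycline library lay below and every TC71 doxycycline library above the vehicle libraries of its line.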

How the results depend on the processing

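Of 492 recomputed counts and balances, 461 stayed within the set limits and 31 moved. Without a fold limit, members called higher numbered 6 in EW8, 7 in TC71, 2 between the lines under vehicle and 4 with doxycycline, and those called lower 2 in EW8, 1 in TC71 and 2 in the difference. Of the 60 list genes tested, those called higher then numbered 37 in EW8, 40 in TC71, 17 in the difference, 26 under vehicle and 27 with doxycycline. Those called lower numbered 8, 6, 8, 26 and 20. Of all tested genes, 21.9%, 25.1%, 12.2%, 28.2% and 30.2% were higher in these comparisons without a fold limit. The shares lower were 22%, 20.4%, 7.07%, 33.5% and 32.3%. Members called higher in TC71 numbered 1 with counts halved to read pairs. List genes called lower in EW8 numbered 1 with library size alone or no filter, and those lower in the difference 3 with at least 10 counts in every library. With 1 library left out, members called higher in TC71 ranged from 1 to 3 and members lower under vehicle from 1 to 4. List genes lower in EW8 ranged from 0 to 1, lower in TC71 from 1 to 2 and higher in the difference from 3 to 7. The cause of these moves was not tested. Where the sign turned, the values were near 0 and passed no test: TEAD1 in EW8 at 0.01 with at least 10 counts in every library and -0.08 to 0.01 with 1 library left out, and, with 1 library left out, YAP1 in TC71 (-0.09 to 0.04), TEAD3 in the difference (-0.05 to 0.39) and, between the lines under vehicle, WWTR1 (-0.15 to 0.09), CCN1 (-0.15 to 0.14) and JUN (-0.20 to 0.14). TEAD3 and TEAD4 in TC71 also missed the threshold with library size alone (adjusted p 0.0596 and 0.0771) and without EW8 vehicle replicate 3 (0.0622 and 0.0714). Without any 1 EW8 doxycycline replicate they missed it too, at 0.0685 to 0.0742 for TEAD3 and 0.0793 to 0.0921 for TEAD4. TEAD3 alone missed it with the libraries of 1 line (adjusted p 0.0635) or without TC71 doxycycline replicate 2 (adjusted p 0.0666). In EW8, TEAD3 passed with the libraries of that line alone (log2 0.20, adjusted p 0.0324). Replicate numbers did not pair the libraries, since deviations of same-numbered vehicle and doxycycline libraries correlated at -0.09 to 0.09. With the replicate number as a block, 3 members were called higher in EW8 and 2 in TC71, where ANKRD1 was lost (adjusted p 0.0733), and the TEAD2 share fell by 11.8 points (adjusted p 0.0469). Low counts limit ANKRD1 most and CCN2 in TC71 next.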
